A study of Caenorhabditis elegans with 8 samples.

Results

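The muscle sarcomere and attachment genes of Caenorhabditis elegans described here are 39 genes, taken by their name in the gene column of the deposited expression table, which lists 46904 genes. They comprise 8 genes of the thick filament, 15 of the thin filament and its regulators, 4 of giant sarcomeric proteins, 8 of attachment sites and 4 of proteins that fold myosin or turn over actin filaments. All 39 had a mean above 1 FPKM (read fragments divided by transcript length and library size) over the libraries and entered every test. The libraries came from polyadenylated RNA of whole hermaphrodites carrying daf-2; hzl-1, or the same mutations with aak(0), a name for loss of the AMPK genes aak-1 and aak-2 (AMP-activated protein kinase). These genotypes are written daf-2 hzl-1 and aak(0) below, the alleles are not given in the sources used here, and no samples without the daf-2 and hzl-1 mutations were analysed here. Each genotype was collected as dauers, the long-lived arrested larva, at 96 h, and as post-dauers at 192 h. The only growth temperature given is 25 °C, for dauers and post-dauers alike. The study design places post-dauers after a shift to the permissive temperature, whose value is not given. There were 2 libraries per group, 8 in all, numbered in the labels with no word on whether cultures were separate, so the spread behind each p-value may be technical. Where a pair of values is given for a group, the order follows those numbers.

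In the sarcomere, myosin thick filaments pull on actin thin filaments, and troponin with tropomyosin lets calcium switch the pull on. Nematode body-wall muscle anchors its thin filaments at dense bodies, integrin-based sites that pass force through the basement membrane and epidermis to the cuticle. The pharynx, the feeding pump, builds its sarcomeres with partly different genes, so several members are known as the body-wall or the pharyngeal version of one protein. Dauers do not feed and do not pump, and they resume both on recovery.

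The recovered read totals ran from 13.99 to 26.98 M per library, and the least covered member of a library had between 29 and 526 reads. Members took 0.816 to 1.49% of the reads. Reads of rRNA genes took 12.4% and 3.40% in the dauers of daf-2 hzl-1 and 0.697% and 0.548% in the post-dauers, and 9.33% and 1.09% with aak(0) in dauers and 0.789% and 5.25% in post-dauers. Over all tested genes the 2 libraries of a group had a Spearman correlation between 0.921 and 0.976, with the dauers of daf-2 hzl-1 lowest. In that group 5 members and 11.99% of all genes differed over 2-fold between the libraries, against 3 members and 17.2% of genes in the aak(0) post-dauers, 0 and 3.22% in the post-dauers of daf-2 hzl-1 and 0 and 2.73% in the aak(0) dauers. In dauers aak-1 was at 3.10 and 3.19 FPKM in daf-2 hzl-1 and 14.7 and 9.99 FPKM in aak(0), and in post-dauers at 8.75 and 8.59 against 7.16 and 7.72 FPKM. In the same order aak-2 was at 35.6 and 43.6 against 37.9 and 49.15 FPKM and at 20.2 and 18.4 against 9.85 and 9.4 FPKM. The aak(0) dauers were thus not lower, and with the alleles not given these levels do not check the genotype labels. C44H9.4, the sequence name of hzl-1 in the series title, was at 0.470 to 3.28 FPKM.

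The members spanned more than 3 orders of magnitude per length. By their mean over all libraries, pat-10, the body-wall troponin C, ranked first of 39, the myosin light chain gene mlc-2 ranked 2, act-1 ranked 3 and mlc-3 ranked 4, while ttn-1, the titin-like gene, ranked 39. In the dauers of daf-2 hzl-1 mlc-2 held the highest mean FPKM, at 2147 ± 507 (SD, n = 2), and pat-10 held it in their post-dauers, at 2099 ± 36.7 (SD, n = 2). The giant genes unc-22 (twitchin), unc-89 (obscurin), ttn-1 and ketn-1 (kettin) had group means of at most 16.3 FPKM and attachment genes at most 59.2 FPKM. The thin filament group had a median of 182 FPKM over its genes in the dauers of daf-2 hzl-1 and 284 FPKM in their post-dauers, and the thick filament group 165 and 111 FPKM.

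Several members are near-identical copies, and their separate values are uncertain. The actin genes act-3 (V:11071690-11074498), act-2 (V:11076723-11078168) and act-1 (V:11079167-11082497) lie side by side on chromosome V, 2224 and 998 nt apart, and mlc-2 (X:17455779-17456586) and mlc-1 (X:17459115-17460778), the regulatory myosin light chain genes, lie 2528 nt apart on X, all in WBcel235 coordinates as deposited. Reads recovered from the deposited counts amounted, per FPKM, to an implied length of only 14.8 to 22.01% of the exonic length for act-1 and 18.3 to 27.6% for act-3, against 94.8 to 101% for act-4 (X:4960553-4964416). Implied lengths were also short for genes outside these copies, at 22.8 to 33.7% for unc-52 and 32.6 to 48.0% for ttn-1. For mlc-1 they were 90.2 to 101%. Whether the FPKM of act-1 and act-3 hold signal that the recovered reads do not was not tested. Values on recovered reads are given beside some of their results. The counting was not stated to use strand, and opposite-strand genes share exonic bases with some members. The widest such overlaps by share were clec-143 with 19.2% of the exonic length of tnc-2 and C36E6.2 with 12.01% of that of mlc-2.

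The first question was how the muscle genes differed between post-dauers and dauers when AMPK genes were intact. In daf-2 hzl-1 animals, act-1, act-2, act-3 and the body-wall troponin T gene mup-2 rose, while the body-wall myosin gene unc-54, the pharyngeal myosin genes and the pharyngeal troponin genes fell. By limma on log2(FPKM + 1), 26 of 39 members were called, 14 higher in post-dauers and 12 lower, at an adjusted p under 0.05, and differences below are on that scale with their standard error. Of all 15365 genes tested, 67.3% were called, 39.4% higher and 27.8% lower, so the member shares of 35.9% and 30.8% were near the background, and the median member difference of 0.33 was near the 0.34 over all genes. With TMM scaling, which moved the median of all genes to 0.05, 8 members were higher and 16 lower, beside 34.1% and 33.5% of all genes, and edgeR on recovered reads gave 7 and 16, beside 33.1% and 35.4%. All 3 fits called 7 members higher, namely act-1, act-2, act-3, mup-2, tni-1, pat-3 and unc-45, and 12 lower, which are named below. Leaving out each library in turn kept all limma calls but those of mlc-1, unc-15, tni-1, pat-10, unc-89, unc-97, unc-52, pat-4 and unc-78. Fewer members were called higher without dauer library 1 than without dauer library 2, and the same held over all genes.

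**Figure D1:**
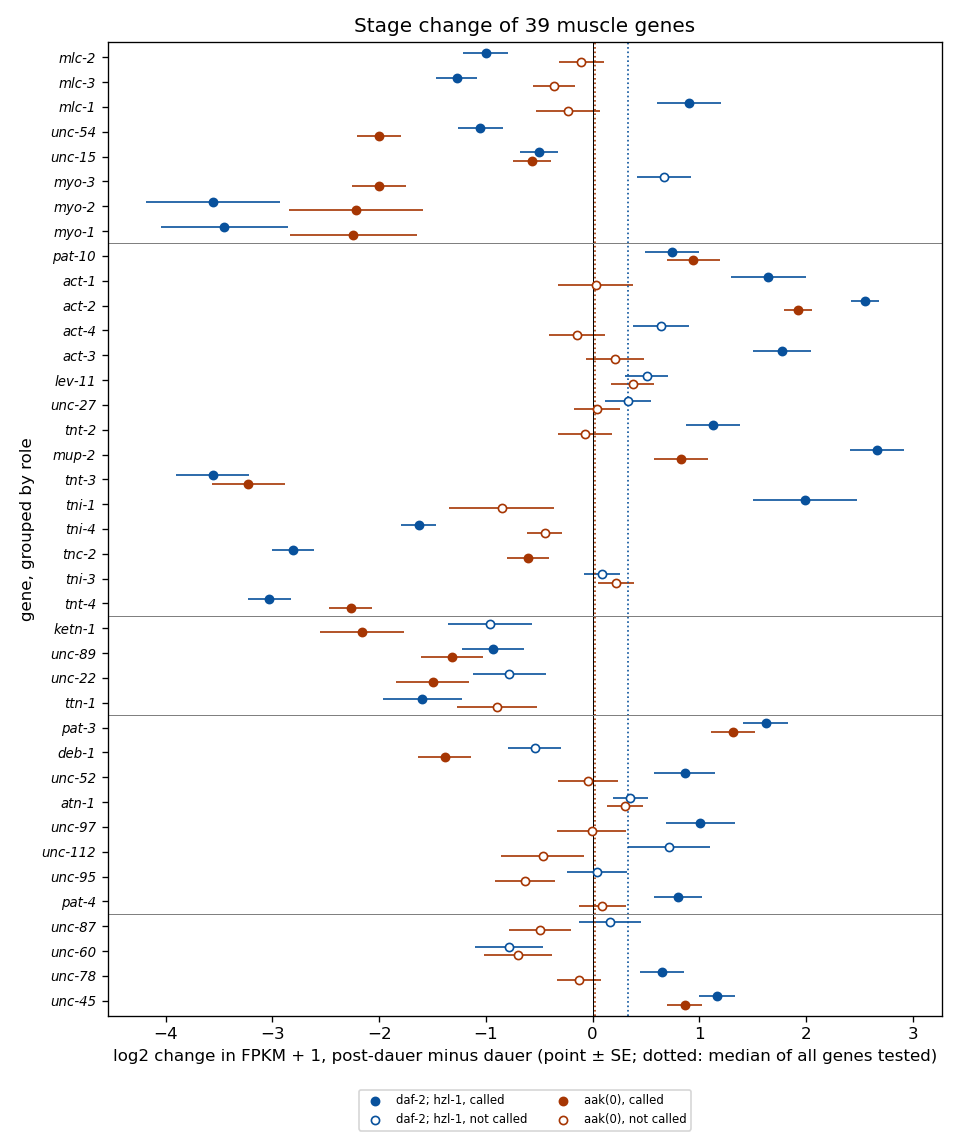
Difference in log2(FPKM + 1) between post-dauers and dauers for each of the 39 genes (points, with bars of 1 standard error), in daf-2 hzl-1 and in aak(0), with filled points for an adjusted p under 0.05 and dotted lines at the median of all genes. In daf-2 hzl-1, tnt-3, myo-2 and myo-1 lie at -3.56, -3.56 and -3.45 and mup-2 and act-2 at 2.67 and 2.55.

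Thick filament genes moved mostly downward in daf-2 hzl-1, with 6 of 8 lower and 1 higher. The pharyngeal myosin heavy chain gene myo-2 (X:12468061-12475348) was at 71.9 and 24.3 FPKM in the dauers and 4.14 and 1.58 FPKM in the post-dauers. Every dauer value lay above every post-dauer value, although dauer library 1 was far above dauer library 2. It fell by 3.56 ± 0.63 on the log2 scale (limma adjusted p = 0.00237). The other pharyngeal heavy chain gene, myo-1 (I:7258915-7267117), went from 54.7 and 22.3 to 3.36 and 1.49 FPKM, again without overlap (log2 -3.45 ± 0.59, limma adjusted p = 0.00212). The main body-wall heavy chain gene unc-54 (I:14855901-14863573) went from 207 and 209.5 to 123 and 80.8 FPKM and fell by 1.05 ± 0.21 (limma adjusted p = 0.00399). Its partner myo-3 (V:12226816-12234343), which makes the myosin at the centre of the body-wall thick filament, was at 9.35 and 14.8 FPKM in dauers and 22.4 and 16.6 FPKM in post-dauers. The groups did not overlap, and the difference of 0.67 ± 0.25 was not called (limma adjusted p = 0.0528).

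Among the light chains, mlc-2 was at 1789 and 2505 FPKM in dauers and 1126 and 989 FPKM in post-dauers, and its dauer values were both above its post-dauer values (log2 -1.004 ± 0.21, limma adjusted p = 0.00525). The regulatory light chain gene mlc-1 went the other way, from 114 and 209 to 322 and 260.2 FPKM, also without overlap. Its limma call (0.90 ± 0.30, adjusted p = 0.0325) was lost in edgeR and with TMM scaling, and without any 1 of 5 of the 8 libraries, namely dauer library 1, both post-dauer libraries and both aak(0) dauer libraries. The essential light chain gene mlc-3 (III:5565025-5567382) went from 1296 and 1726 to 653 and 584 FPKM and fell by 1.28 ± 0.20 (limma adjusted p = 0.00129). The paramyosin gene unc-15 (I:7376604-7383197), which builds the filament core, fell by 0.50 ± 0.18 (limma adjusted p = 0.0404), a call lost without either dauer library, post-dauer library 2 or either aak(0) dauer library.

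Actins rose in post-dauers of daf-2 hzl-1 for 3 of 4 genes. In dauers act-2 was at 183 and 182 FPKM, the most even pair of the actins, and in post-dauers at 1121 and 1028 FPKM (log2 2.55 ± 0.13, limma adjusted p = 1.95e-05). Post-dauer values were all above dauer values for act-1, at 231 and 518 FPKM before and 1169 and 1009 FPKM after (log2 1.65 ± 0.35, limma adjusted p = 0.00557). The same held for act-3, at 132 and 240.4 and then 666 and 563 FPKM (log2 1.78 ± 0.27, limma adjusted p = 0.00127). On recovered reads the log2 differences were 1.79, edgeR adjusted p = 0.00282, for act-1 and 1.95, edgeR adjusted p = 0.000581, for act-3. For act-4 the values were 222 and 396 and then 485 and 441 FPKM, and the difference of 0.64 ± 0.26 was not called (limma adjusted p = 0.0649). The summed FPKM of the 4 actin genes over that of the 4 myosin heavy chain genes was 2.24 and 4.93 in dauers and 22.5 and 30.3 in post-dauers. That ratio was higher in both post-dauer libraries than in either dauer library.

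Troponin genes moved in both directions. Troponin T, the subunit that binds tropomyosin, is encoded by mup-2, tnt-2, tnt-3 and tnt-4. In dauers mup-2 (X:6408470-6410359) was at 24.7 and 41.2 FPKM and in post-dauers at 235.5 and 184 FPKM (log2 2.67 ± 0.25, limma adjusted p = 0.000164), whereas tnt-3 (X:7937635-7945048) was at 207 and 191 and then 22.8 and 11 FPKM (log2 -3.56 ± 0.34, limma adjusted p = 0.000165). Neither gene's groups overlapped. The share of the summed troponin T FPKM held by tnt-3 was 58.4 and 45.7% in dauers and 4.02 and 2.41% in post-dauers, while that of mup-2 was 6.98 and 9.87% and 41.5 and 40.2%. The pharyngeal tnt-4 (V:1989476-1992918) went from 21.97 and 19.4 to 1.53 and 1.77 FPKM (log2 -3.03 ± 0.20, limma adjusted p = 4.37e-05). For tnt-2 (X:8721557-8723552) the difference was 1.13 ± 0.25 (limma adjusted p = 0.00670), which edgeR did not call (0.79, edgeR adjusted p = 0.0521).

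**Figure D2:**
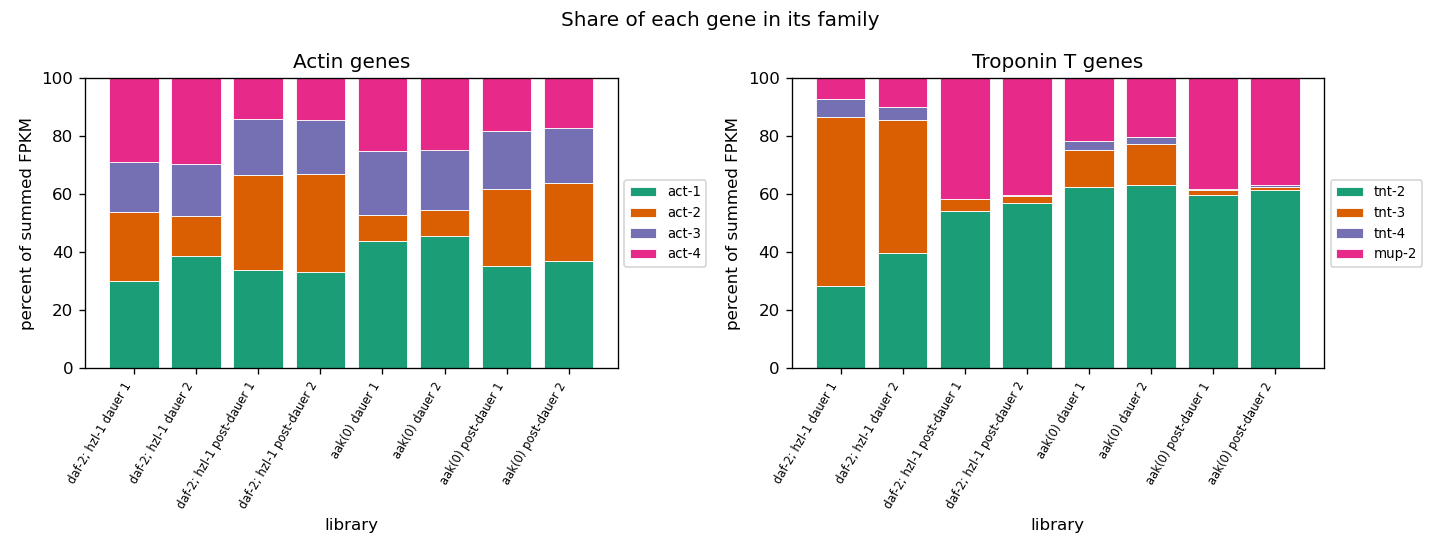
Percent of summed FPKM held by each of the 4 actin genes (left) and each of the 4 troponin T genes (right), 1 bar per library. In troponin T, tnt-3 holds 58.4% and 45.7% in the dauers of daf-2 hzl-1 and 4.02% and 2.41% in their post-dauers, and act-2 holds more of the actin FPKM in all 4 post-dauer libraries than in any dauer library.

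Troponin I, the inhibitory subunit, has 4 genes. The body-wall gene unc-27 (X:8789456-8790621) held 69.9 and 76.2% of their summed FPKM in dauers and 81.9 and 77.6% in post-dauers, and at 268 and 394 and then 451 and 372 FPKM its groups overlapped (log2 0.33 ± 0.22, limma adjusted p = 0.210). The pharyngeal gene tni-4 (IV:5204591-5207138) went from 91.5 and 81.1 to 26.1 and 28.2 FPKM and fell by 1.63 ± 0.16 (limma adjusted p = 0.0002). In contrast tni-1 (X:11375887-11377470) was at 7.88 and 24.03 FPKM in dauers and 55.7 and 60.9 FPKM in post-dauers, with both dauer values lower (log2 1.99 ± 0.49, limma adjusted p = 0.0101), a call lost without post-dauer library 2. At 15.9 and 18.04 and then 17.9 and 18.2 FPKM, tni-3 (V:16833638-16835144) overlapped between the stages (log2 0.09 ± 0.17, limma adjusted p = 0.666). Troponin C, the calcium sensor, is pat-10 (I:5018770-5020166) in the body wall and tnc-2 (II:10466852-10468344) in the pharynx. In dauers tnc-2 was at 54.3 and 49.6 FPKM and in post-dauers at 7.58 and 5.66 FPKM, and the groups were far apart (log2 -2.81 ± 0.20, limma adjusted p = 5.46e-05). For pat-10 the values were 968 and 1618 and then 2125 and 2073 FPKM, and its limma call (0.75 ± 0.25, adjusted p = 0.0339) was not made by edgeR (0.41, edgeR adjusted p = 0.280). Tropomyosin, lev-11, at 0.51 ± 0.20, was not called (limma adjusted p = 0.0588).

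Of the 4 giant genes, 2 were lower by limma, ttn-1 at 6.0 and 2.71 FPKM in dauers and 0.780 and 0.600 FPKM in post-dauers (log2 -1.59 ± 0.37, limma adjusted p = 0.00803) and unc-89 at -0.93 ± 0.29 (limma adjusted p = 0.0262). With TMM scaling and in edgeR all 4 were lower. These values are low, so log2(FPKM + 1) understates their change.

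At the attachment sites, pat-3 (III:3908929-3914149), the beta-integrin that spans the muscle membrane, was at 15.1 and 16.6 FPKM in dauers and 48.99 and 52.7 FPKM in post-dauers. The post-dauer libraries were about equal and both above the dauers (log2 1.62 ± 0.21, limma adjusted p = 0.000575). Limma also called unc-52 (perlecan of the basement membrane), unc-97 (PINCH) and pat-4 (integrin-linked kinase) higher, by 0.86, 1.01 and 0.80, but edgeR and TMM scaling called none of these 3. With both of those, deb-1 (vinculin of the dense body) was instead called lower, so the attachment group's count of 4 higher and 0 lower became 1 and 1. The genes atn-1 (alpha-actinin), unc-112 (kindlin) and unc-95 (a LIM protein of the dense body) were not called by limma, at 0.35, 0.72 and 0.04. Of the assembly genes, unc-45, the myosin chaperone (III:491547-502625), went from 12.4 and 13.7 to 31.6 and 29.4 FPKM without overlap (log2 1.16 ± 0.17, limma adjusted p = 0.000923). The actin-severing partner gene unc-78 was called by limma alone (0.65 ± 0.21), and unc-87 (a calponin-like stabiliser of actin filaments) was called by none of the 3 fits. The cofilin gene unc-60, at -0.78 ± 0.32, was not called by limma (adjusted p = 0.0641) but was called lower by edgeR (-1.23, edgeR adjusted p = 0.00846) and with TMM scaling (-1.12, adjusted p = 0.0158).

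Markers of several other cell types moved with the stage. The summed FPKM of 12 germline markers was 246 and 184 in dauers of daf-2 hzl-1 and 3020.0 and 2911 in post-dauers, and of 10 intestine markers 619 and 865 and then 17941 and 19785. The 10 neuron markers summed to 1711 and 2055 and then 322 and 295 FPKM, and all 10 were lower by limma. The 12 sperm markers summed to 22.3 and 39.6 and then 1422 and 1135 FPKM, and the 10 epidermis markers to 87.6 and 169.9 and then 166 and 116 FPKM, which overlapped, with 2 higher and 3 lower by limma. None of these marker lists had a gene listed at 0 in the post-dauers, and in dauer library 1 only the sperm markers did, 3 of 12. Of 8 pharynx genes outside the sarcomere, 3 were at 0 in each dauer library of daf-2 hzl-1, and 3 and 1 in its post-dauers. In whole animals fewer muscle cells among other tissue and less RNA per muscle cell cannot be told apart, and the part of these tissues in the muscle values was not tested.

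In aak(0) animals the stage comparison used other libraries. Myosin heavy chains, tnt-3, tnt-4 and 3 of 4 giant protein genes fell, and act-2, mup-2, pat-10, pat-3 and unc-45 rose. Limma called 5 of 39 members higher and 12 lower, and the all-gene shares were 25.9% and 27%, 52.9% together, so higher calls were below and lower calls near that background, at 12.8% and 30.8%. The median member difference was -0.36, beside 0.02 over all genes. With TMM scaling the counts were 5 and 10, beside 24.4% and 29.5% of all genes, and with edgeR also 5 and 10, beside 25.0% and 29.9%. Of these calls, 15 of limma's 17 were made by all 3 fits. Leaving out each library in turn kept 9 of the 17, all but those of myo-1, myo-2, unc-15, mup-2, pat-10, tnc-2, unc-22 and unc-89. Without either aak(0) dauer library fewer members were called, and fewer of all genes were called as well. By gene length, the median aak(0) stage difference was -0.57 over 354 genes above 5000 nt and 0.04 over shorter genes. In daf-2 hzl-1 these medians were 0.02 and 0.34. All heavy chain and giant genes are above 5000 nt. Of the shorter genes that also fell, tnt-3 is close to that cut, at 4917 nt, and tnt-4 is at 1366 nt. The part of length in these falls was not tested.

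All 4 myosin heavy chain genes fell in aak(0). For unc-54 the FPKM went from 349 and 387 in dauers to 86.7 and 95.5 in post-dauers (log2 -2.002 ± 0.21, limma adjusted p = 0.00053). For myo-3 it went from 68.9 and 73.95 to 18.1 and 16.2 (log2 -2.0 ± 0.25, limma adjusted p = 0.00107). Both body-wall genes had dauer libraries close to each other and well above the post-dauers. The pharyngeal genes were at 18.2 and 20.3 and then 1.61 and 6.01 FPKM for myo-1 (log2 -2.24 ± 0.59, limma adjusted p = 0.0181) and 16.9 and 17.9 and then 1.59 and 5.08 FPKM for myo-2 (log2 -2.22 ± 0.63, limma adjusted p = 0.0234). Post-dauer library 2 was above library 1 for both, and both calls were lost without either dauer library or without post-dauer library 1. The light chains mlc-1, mlc-2 and mlc-3, at -0.23, -0.11 and -0.36, were not called, and unc-15 was called by limma alone (log2 -0.57 ± 0.18, limma adjusted p = 0.0325).

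Of the actins only act-2 was called in aak(0), at 313 and 325 FPKM in dauers and 1138 and 1298 FPKM in post-dauers (log2 1.93 ± 0.13, limma adjusted p = 0.000154). The other actins were not called, with differences of 0.03 for act-1, 0.21 for act-3 and -0.15 for act-4. On recovered reads they were not called either, with 0.40, edgeR adjusted p = 0.381, for act-1, 0.47, edgeR adjusted p = 0.202, for act-3 and -0.14, edgeR adjusted p = 0.734, for act-4. The act-2 share of actin FPKM was 8.97 and 8.84% in dauers and 26.5 and 26.9% in post-dauers. In troponin T, tnt-3 went from 89.1 and 114 to 11.6 and 8.41 FPKM (log2 -3.22 ± 0.34, limma adjusted p = 0.000537), tnt-4 from 21.6 and 19.8 to 3.67 and 3.36 FPKM (log2 -2.27 ± 0.20, limma adjusted p = 0.000321) and mup-2 from 149 and 161 to 263 and 291 FPKM (log2 0.83 ± 0.25, limma adjusted p = 0.0303). The mup-2 call was lost when any of the 4 aak(0) libraries was left out. For tni-1, tni-3, tni-4 and unc-27 the differences, at -0.85, 0.22, -0.45 and 0.04, were not called.

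The calcium-sensor genes went apart in aak(0). For pat-10 the post-dauer values of 3604 and 3959.7 FPKM were above the dauer values of 1830.5 and 2110.1 FPKM (log2 0.94 ± 0.25, limma adjusted p = 0.0182), while tnc-2 was at 37.2 and 30.5 and then 21.8 and 21.7 FPKM. The tnc-2 call (-0.61 ± 0.20, limma adjusted p = 0.0385) was not made by edgeR or with TMM scaling. Of the giant genes ketn-1 (V:2781943-2807934) went from 14.4 and 18.3 to 2.27 and 3.55 FPKM (log2 -2.16 ± 0.40, limma adjusted p = 0.00433), unc-22 from 6.93 and 9.81 to 1.67 and 3.02 FPKM (log2 -1.499 ± 0.34, limma adjusted p = 0.00990) and unc-89 changed by -1.31, while ttn-1 was not called (log2 -0.89 ± 0.37, limma adjusted p = 0.0832). The unc-22 and unc-89 calls were lost without dauer library 2. At the attachments deb-1 (IV:7085216-7094364) fell from 46.1 and 58.5 to 23.1 and 16.1 FPKM (log2 -1.38 ± 0.25, limma adjusted p = 0.00400) and pat-3 rose from 21.2 and 24.5 to 69.5 and 48.97 FPKM (log2 1.32 ± 0.21, limma adjusted p = 0.00237). The chaperone gene unc-45 rose by 0.86 ± 0.17 (limma adjusted p = 0.00533). Beside these changes the germline markers summed to 729 and 733 FPKM in dauers and 2565 and 2529 FPKM in post-dauers, all 12 higher by limma, and the neuron markers to 1312 and 1498 and then 477 and 487 FPKM, 8 of 10 lower, and their part was not tested.

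By limma, 5 members were higher in both genotypes, namely act-2, mup-2, pat-10, pat-3 and unc-45, and 8 lower in both, namely unc-54, myo-1, myo-2, unc-15, tnt-3, tnt-4, tnc-2 and unc-89. These were 12.8% and 20.5% of the members, beside 23.3% and 21.6% of all genes called higher or lower in both. Another 13 were called in daf-2 hzl-1 alone, 4 in aak(0) alone and 9 in neither. A call in one genotype and not in the other does not show a difference between them, which the interaction below tests. The authors' deposited table, whose fold changes are dauer minus post-dauer, put 13 members higher and 15 lower in post-dauers of daf-2 hzl-1, and 5 higher and 11 lower in post-dauers of aak(0). The share of all genes called by the authors' test was not counted, so these counts have no background beside them.

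Ratios of a pharyngeal gene to its body-wall partner within one library do not depend on the scaling of that library. For tnt-4 over mup-2 the ratio of FPKM was 0.889 and 0.471 in dauers of daf-2 hzl-1 and 0.00650 and 0.00964 in post-dauers, and 0.145 and 0.123 and then 0.0140 and 0.0116 in aak(0). For tnc-2 over pat-10 it was 0.0560 and 0.0307 and then 0.00357 and 0.00273 in daf-2 hzl-1, and 0.0203 and 0.0144 and then 0.00606 and 0.00547 in aak(0). All 4 dauer libraries were above all 4 post-dauer libraries for both pairs. For tni-4 over unc-27 the daf-2 hzl-1 libraries held 0.342 and 0.206 and then 0.0579 and 0.0759, and the aak(0) libraries 0.0779 and 0.0625 and then 0.0545 and 0.0445. The stages were apart in each genotype, and the aak(0) dauers lay within the range of the post-dauers of daf-2 hzl-1 or close to it. For myo-2 over myo-3 the values were 7.69 and 1.65 and then 0.185 and 0.0954, and 0.246 and 0.243 and then 0.0880 and 0.314, so the aak(0) stages overlapped. A body-wall set of 5 genes (unc-54, myo-3, mup-2, unc-27 and pat-10) was summed over a pharynx set of 5 (myo-1, myo-2, tnt-4, tni-4 and tnc-2). That ratio was 5.02 and 11.6 in dauers of daf-2 hzl-1 and 69.2 and 70.4 in post-dauers. With aak(0) it was 21.1 and 26.2 and then 73.9 and 74.6. In each library pat-10 alone held 60.3 to 78.6% of the body-wall sum, so the ratio does not show a shift shared by the body-wall genes. In aak(0) unc-54 and myo-3 were lower in post-dauers.

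**Figure D3:**
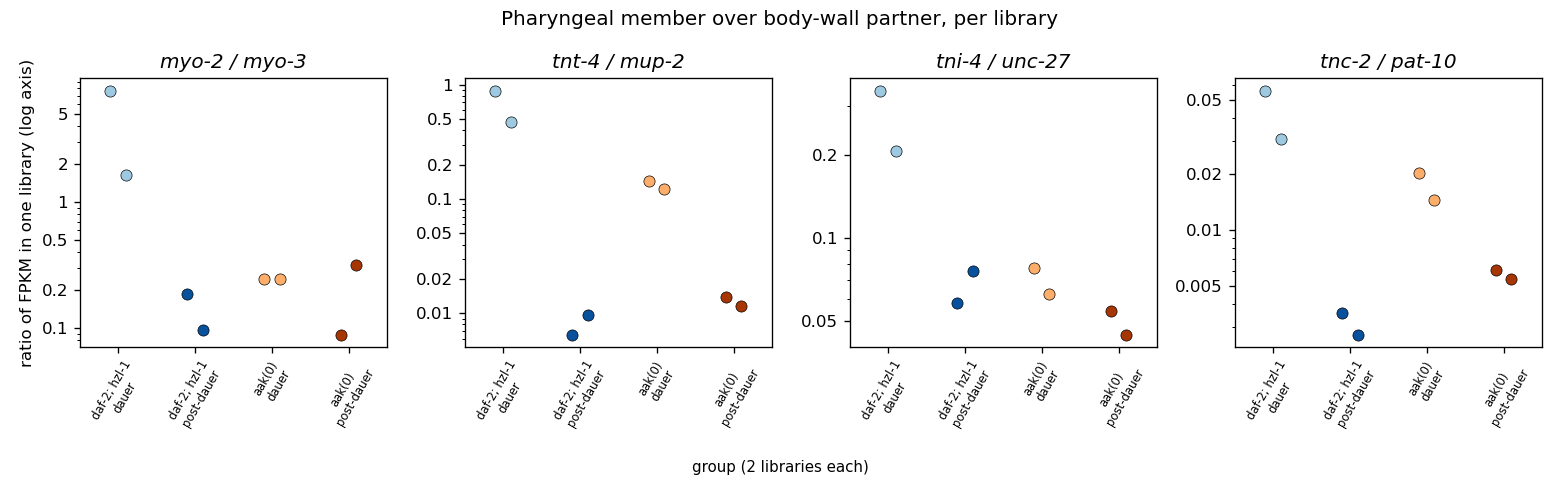
Ratio of FPKM of a pharyngeal gene to its body-wall partner (log axis) in each of the 8 libraries, by group, for 4 gene pairs. In daf-2 hzl-1 the tnt-4 to mup-2 ratio is 0.889 and 0.471 in dauers and 0.00650 and 0.00964 in post-dauers.

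The next comparison set aak(0) against daf-2 hzl-1 in dauers, the same dauer libraries that enter the stage comparisons. Where values of both genotypes are set against each other, daf-2 hzl-1 comes first. Actins other than the weakly differing act-2, the body-wall myosin gene myo-3, mlc-1, mup-2, tnt-2 and tni-1 were higher in aak(0), and the pharyngeal tni-4 was lower. Limma called 20 of 39 members higher and 1 lower, beside 25.5% and 3.60% of all genes, so 53.8% of members were called in either direction against 29.1%. The median member difference was 0.82, beside 0.41 over all genes. TMM scaling moved the all-gene median to 0.05 and the member median to 0.39, with 12 higher and 3 lower beside 16.5% and 10% of all genes, and edgeR called 11 and 3 beside 14.8% and 7.99%. All 3 fits called 11 members higher, namely myo-3, mlc-1, act-1, act-3, act-4, tnt-2, mup-2, tni-1, unc-97, unc-112 and unc-78. Without aak(0) dauer library 1 limma called 6 members higher and 1305 of all genes, and without library 2 it called 5 and 1414, against 4464 of all genes with every library. All 20 higher members kept their direction in each fit without 1 library, at differences of 0.64 or more, and 5 calls (myo-3, mlc-1, act-3, tnt-2 and mup-2) were kept whichever library of the study was left out.

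The widest difference was in myo-3, at 9.35 and 14.8 FPKM in dauers of daf-2 hzl-1 and 68.9 and 73.95 FPKM in aak(0) dauers. All aak(0) values were several times the daf-2 hzl-1 values (log2 2.50 ± 0.25, limma adjusted p = 0.00116). For unc-54, at 207 and 209.5 against 349 and 387 FPKM, the groups were also apart, but the call was limma's alone (log2 0.82 ± 0.21, limma adjusted p = 0.0290, with edgeR at 0.40, edgeR adjusted p = 0.417). The pharyngeal chains myo-1 and myo-2, at -0.83 and -1.22, were not called. In the light chains mlc-1 was at 114 and 209 against 571 and 608 FPKM (log2 1.93 ± 0.30, limma adjusted p = 0.00549), whereas mlc-2, at 1789 and 2505 against 2032 and 2212 FPKM, overlapped between the genotypes with a difference of 0.00 ± 0.21. The mlc-1 to mlc-2 ratio was 0.0637 and 0.0832 in dauers of daf-2 hzl-1 and 0.281 and 0.275 in aak(0) dauers, and it was 0.286 and 0.263 against 0.247 and 0.264 in the post-dauers.

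Actin genes were higher in aak(0) dauers for all 4 members by limma. For act-1 the values were 231 and 518 FPKM in daf-2 hzl-1 and 1537 and 1683 FPKM in aak(0) (log2 2.21 ± 0.35, limma adjusted p = 0.00605, with edgeR at 1.91, edgeR adjusted p = 0.00920). For act-3 they were 132 and 240.4 against 770.1 and 763 FPKM (log2 2.10 ± 0.27, limma adjusted p = 0.00281, with edgeR at 1.84, edgeR adjusted p = 0.00419) and for act-4 222 and 396 against 873 and 908 FPKM (log2 1.58 ± 0.26, limma adjusted p = 0.00677). None of these groups overlapped, and in each the daf-2 hzl-1 library 1 was the lowest. For act-2, at 183 and 182 against 313 and 325 FPKM, the limma call (log2 0.80 ± 0.13, limma adjusted p = 0.00695) was not made by edgeR (0.43, edgeR adjusted p = 0.316).

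In the troponin complex mup-2 was at 24.7 and 41.2 FPKM in dauers of daf-2 hzl-1 and 149 and 161 FPKM in aak(0) dauers (log2 2.24 ± 0.25, limma adjusted p = 0.00170), and tnt-2 at 100.5 and 166 against 436 and 507 FPKM (log2 1.86 ± 0.25, limma adjusted p = 0.00332). For tni-1 the values were 7.88 and 24.03 against 80.05 and 81.8 FPKM (log2 2.46 ± 0.49, limma adjusted p = 0.0129), with daf-2 hzl-1 library 1 far below library 2 and both below aak(0). The pharyngeal tni-4 went the other way, at 91.5 and 81.1 against 49.5 and 40.9 FPKM (log2 -0.92 ± 0.16, limma adjusted p = 0.00853). By edgeR and with TMM scaling tnt-3, at 207 and 191 against 89.1 and 114 FPKM, and tnc-2, at 54.3 and 49.6 against 37.2 and 30.5 FPKM, were lower too, and limma called neither (0.0722 and 0.0596 as limma adjusted p). Limma alone called lev-11, tni-3 and unc-27 higher, by 0.92, 0.87 and 0.99. At the attachments 5 of 8 were higher by limma, among them unc-97 (PINCH), at 8.1 and 17.5 against 33.8 and 32.1 FPKM (log2 1.39 ± 0.32, limma adjusted p = 0.0213), and unc-112 (kindlin), at 9.32 and 13.7 against 30.6 and 33.02 FPKM (log2 1.41 ± 0.39, limma adjusted p = 0.0356). The pat-3 difference of 0.50 ± 0.21 was not called. Of the assembly genes unc-78, which works with cofilin, was higher in all 3 fits, at 9.95 and 14.3 against 29 and 31.9 FPKM (log2 1.28 ± 0.21, limma adjusted p = 0.00643), and unc-87 in limma only.

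Markers of other cells moved here as well. The summed germline markers were 246 and 184 FPKM in dauers of daf-2 hzl-1 and 729 and 733 FPKM in aak(0) dauers, with 8 of 12 higher and 1 lower by limma, and the sperm markers 22.3 and 39.6 against 316 and 347 FPKM. The epidermis markers summed to 87.6 and 169.9 against 282 and 323 FPKM, with 5 of 10 higher. By limma 25.5% of all genes were higher and 3.60% lower. The intestine markers were also higher in aak(0), at 619 and 865 against 1802 and 2088 FPKM, and the neuron markers were lower, at 1711 and 2055 against 1312 and 1498 FPKM. Their part in the differences of the muscle genes was not tested.

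**Figure D4:**
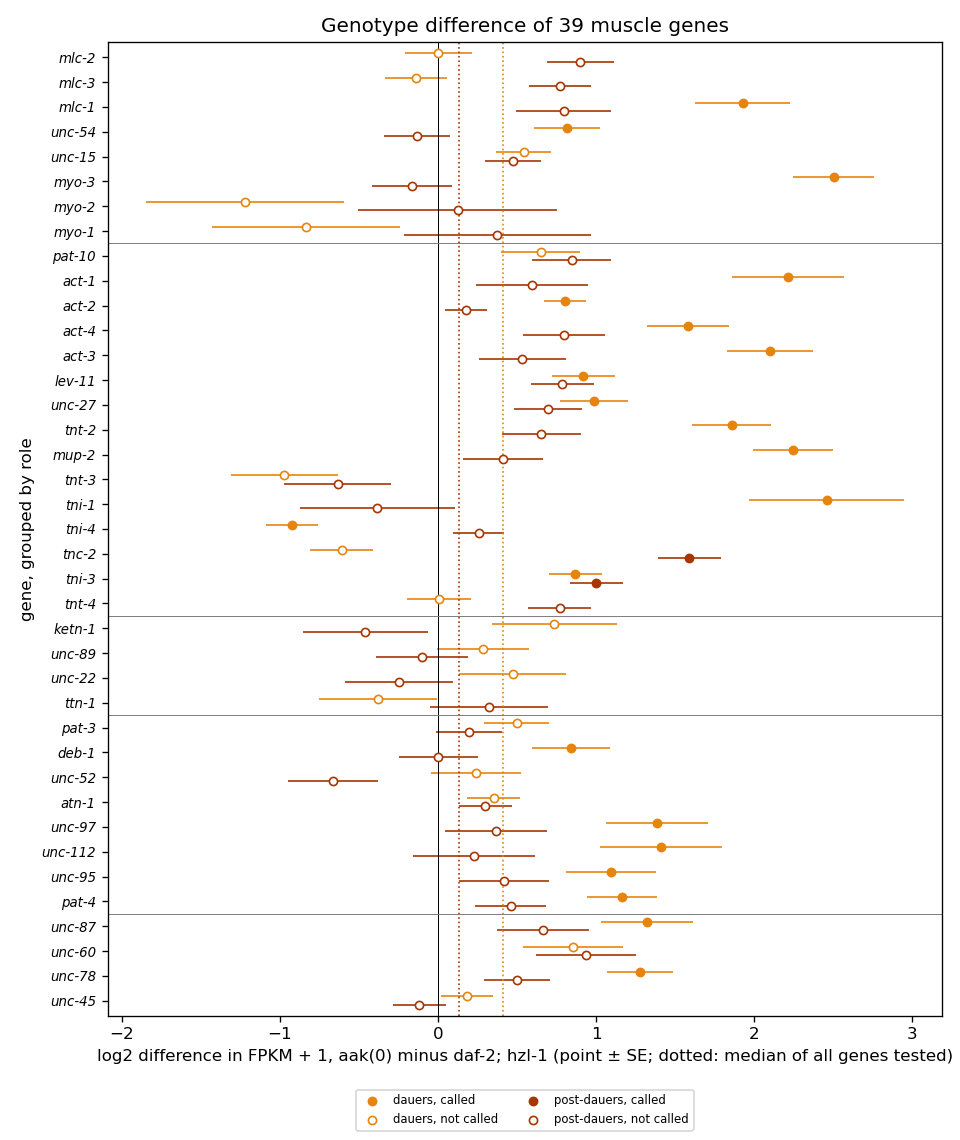
Difference in log2(FPKM + 1) between aak(0) and daf-2 hzl-1 for each of the 39 genes (points, with bars of 1 standard error), in dauers and in post-dauers, with filled points for an adjusted p under 0.05 and dotted lines at the median of all genes. In dauers myo-3 lies at 2.50 and tni-4 at -0.92, and in post-dauers only tnc-2 and tni-3 are filled, at 1.59 and 1.00.

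In post-dauers limma called 2 members higher in aak(0) and 0 lower, beside 4.22% and 0.443% of all genes, 4.66% together. At an adjusted p under 0.05 edgeR called 1 higher and 0 lower, beside 3.38% and 0.786% of all genes, and TMM scaling 1 and 0, beside 3.33% and 0.794%. At an unadjusted p under 0.05 limma had 14 higher and 0 lower, 35.9% and 0% of the members beside 17.1% and 3.31% of all genes. At that threshold edgeR had 7 and 2, 17.9% and 5.13% beside 13.8% and 7.85%. For tnc-2 the values were 7.58 and 5.66 FPKM in daf-2 hzl-1 and 21.8 and 21.7 FPKM in aak(0), apart by more than the spread of either pair (log2 1.59 ± 0.20, limma adjusted p = 0.0101). The same call was made by edgeR (1.61, edgeR adjusted p = 0.0251) and with TMM scaling, and was lost without either daf-2 hzl-1 post-dauer library. For tni-3, at 17.9 and 18.2 against 34.2 and 40.4 FPKM, the limma call (log2 1.00 ± 0.17, limma adjusted p = 0.0269) was not made by edgeR (0.96, edgeR adjusted p = 0.0952) and was lost without either daf-2 hzl-1 post-dauer library, either aak(0) dauer library or aak(0) post-dauer library 2. The median member difference was 0.41, beside 0.13 over all genes, and across genes it ran with length, at a Spearman rho of -0.70 between the difference and exonic length over the 39 members and -0.36 over all genes with a length. This is a description, since the genes share 4 libraries. The aak(0) post-dauer libraries differed with length among themselves, with a median of -0.99 for genes over 5000 nt against -0.21 for shorter ones in library 2 minus library 1.

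The stage change differed between genotypes for 6 members. The interaction, the stage change in aak(0) minus that in daf-2 hzl-1, was called higher for 2 and lower for 4 by limma, beside 3.54% and 7.80% of all genes, 11.3% together, and all 8 libraries enter it. By edgeR it was called higher for 3 and lower for 2, beside 5.23% and 7.79% of all genes, and with TMM scaling for 2 and 3, beside 6.43% and 7.25%. For tnc-2 it was 2.20 ± 0.28, and for tni-4 1.18 ± 0.23, with limma adjusted p of 0.00667 and 0.0245. The pharyngeal genes tnc-2 and tni-4 thus had the less negative stage difference in aak(0), and both calls were also made by edgeR and with TMM scaling. For myo-3 it was -2.67 ± 0.36 and for tni-1 -2.84 ± 0.69, called in all 3 fits, with limma adjusted p of 0.00803 and 0.0468. For mup-2 and act-3, at -1.84 and -1.57, edgeR made no call, and with TMM scaling mup-2 alone was called. The tnc-2 call was kept whichever library was left out, and the other 5 were lost without either aak(0) dauer library.

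Other muscle genes were set beside the members from a list of 39, which includes ion channels, transcription factors and further dense body proteins. By limma, 39.4% of all genes were higher and 27.8% lower with the stage in daf-2 hzl-1, and 25.9% and 27% in aak(0). In dauers of the genotypes the shares were 25.5% and 3.60%, in post-dauers 4.22% and 0.443%, and in the interaction 3.54% and 7.80%. In daf-2 hzl-1 5 were higher and 23 lower in post-dauers by limma, with a median of -1.07, led by hlh-1, the MyoD-type transcription factor gene (log2 -3.48 ± 0.23, limma adjusted p = 4e-05), and cpna-1, a copine gene of the muscle attachment (log2 -3.90 ± 0.27, limma adjusted p = 4.83e-05). In aak(0) 1 was higher and 27 lower, with a median of -1.08, and the smallest adjusted p belonged to mlp-1, a muscle LIM protein gene that rose (log2 2.49 ± 0.18, limma adjusted p = 0.000181), and cpna-1 (log2 -3.33 ± 0.27, limma adjusted p = 0.000227). In dauers 8 were higher and 0 lower in aak(0), led by cap-1 (log2 0.91 ± 0.12, limma adjusted p = 0.00340), a subunit of the actin capping protein, and alp-1 (log2 1.19 ± 0.18, limma adjusted p = 0.00482), a LIM protein gene. With TMM scaling the counts were 5 and 8, beside 16.5% and 10% of all genes. The list's median moved from 0.11 to -0.31, and that of all genes from 0.41 to 0.05. In post-dauers 1 was higher, and the interaction called 2 higher and 1 lower.

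Of 14 nonmuscle cytoskeleton genes, 12 were higher and 1 lower in post-dauers of daf-2 hzl-1, and 11 and 1 in aak(0) post-dauers, while TMM scaling gave 10 and 1 in the first and 7 and 1 in the second. For this list and the next, the limma shares of all genes were 39.4% and 27.8% in daf-2 hzl-1 and 25.9% and 27% in aak(0). With TMM scaling they were 34.1% and 33.5%, and 24.4% and 29.5%. Of 9 epidermal attachment genes, which carry the force of the body wall to the cuticle, 3 were higher and 1 lower in daf-2 hzl-1, and 1 and 3 in aak(0). Among 6 tested pharynx genes outside the sarcomere, pha-4, the pharyngeal organ-identity gene (log2 -2.76, limma adjusted p = 9.45e-05), and ceh-22, a pharyngeal muscle transcription factor gene (log2 -1.88, limma adjusted p = 0.000642), fell in daf-2 hzl-1, and phat-3 (log2 1.33, limma adjusted p = 0.0131) and phat-4 (log2 1.18, limma adjusted p = 0.0276) rose.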

How the data were processed

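Polyadenylated RNA of whole animals was sequenced in 8 libraries, in 4 groups of 2. The authors deposited FPKM per gene and, for each genotype, count signal divided by size factors, per the file headers. The same deposited tables hold log2 fold changes and p-values of the authors' test. Named tools are Trimmomatic 0.35, STAR 2.7.1a, RSEM, DESeq2 1.30.1 with the build WBcel235, in no stated order, per the submitters' processing notes. The deposited signal was a whole multiple of 1 step per library for 100% of values (tolerance 1e-06), so reads were recovered.

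FPKM were tested as log2(FPKM + 1) with limma 3.58.1 (trend), in 1 fit of all groups over 15365 genes with a mean of at least 1 FPKM, leaving 4 residual degrees of freedom. Benjamini-Hochberg adjusted p under 0.05 made a call. Recovered reads were tested with edgeR 4.0.16 (quasi-likelihood, TMM, 17050 genes) and DESeq2 1.42.0. The scripts were tested on simulated data. The 5 comparisons were both stage changes, both genotype differences and their interaction.

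The members and lists were chosen with earlier results of these data known. Values per library are given for the 4 largest called rises and falls of each comparison among genes with a mean of at least 5 FPKM, for members called in a genotype comparison or the interaction (the 6 smallest adjusted p where more), and for the myosin heavy chains, actins, troponin I genes, mlc-1, mlc-2 and pat-3. Of other lists, the 2 genes with the smallest adjusted p are named, and others shown were chosen after their values were seen. Alternatives were other pseudocounts, filters, scalings and tools, a replicate block, smaller fits and leaving out each library. No sequences were used here. Depth ran from 13.99 to 26.98 M recovered reads per library, and each group mean rests on 2 libraries.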

Additional observations from a re-analysis of the deposited data

Results flagged for a closer look

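Stage changes that differed between the genotypes were found for 6 of the 39 genes by the limma test of the interaction, the change in aak(0) minus the change in daf-2 hzl-1 on log2(FPKM + 1). That was 15.4% of the members, beside 11.3% of all genes tested. EdgeR made no call for mup-2 and act-3. All of these calls but that of tnc-2 were lost without either aak(0) dauer library. For myo-3 the difference was -2.67, from stage changes of -2.0 with aak(0) and 0.67 without it (limma adjusted p = 0.00803). For tni-1 it was -2.84, from -0.85 and 1.99 (limma adjusted p = 0.0468). For mup-2 it was -1.84, from 0.83 and 2.67, both rises (limma adjusted p = 0.0247). For act-3 it was -1.57, from 0.21 and 1.78 (limma adjusted p = 0.0483).

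Of the pharyngeal genes, tnc-2 and tni-4 differed in the other direction. For tnc-2 the difference was 2.20, from stage changes of -0.61 with aak(0) and -2.81 without it (limma adjusted p = 0.00667), and for tni-4 it was 1.18, from -0.45 and -1.63 (limma adjusted p = 0.0245). The interaction was not called by limma for myo-1, myo-2 and tnt-4, with limma adjusted p of 0.363, 0.342 and 0.129. For tnt-4 edgeR did call it higher (1.46, edgeR adjusted p = 0.0412), and limma with TMM scaling did not (1.06, limma adjusted p = 0.0657). Groups of 2 libraries were too small to look for single libraries that stand apart.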

How the results depend on the processing

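Over 18 alternatives, 2993 of 3460 member values kept their direction and call, 138 changed sign where neither value was called, 236 lost the call, 93 gained it and 0 called values reversed. At a filter of 5 FPKM members below it have no value. The member median of the daf-2 hzl-1 stage change reversed to -0.0064 with TMM scaling of FPKM and -0.00058 in edgeR, with the median of all genes moving alike, from 0.34 to 0.05 and -0.01. In that comparison 8 (TMM), 7 (edgeR) and 9 (DESeq2) members were higher, beside 34.1% and 33.1% of all genes and, in DESeq2, 5899 of 18788. In dauers, aak(0) was higher for 12, 11, 11 (edgeR with RLE factors) and 11 (DESeq2) members and lower for 3, 3, 3 and 4, and lower for 2 with only its groups fitted. In the same order, all genes higher were 2530 of 15365, 2518 of 17050, 2450 of 17050 and 2447 of 17327. All genes lower were 1537, 1363, 1715 and 1632, and 545 of 14942 with only its groups fitted. In post-dauers 1 member was higher under each of these 4 settings, 5 without rRNA reads and 0 with only its groups fitted. All genes higher were 511, 577, 561 and 754 under these 4 settings and 953 of 15355 without rRNA reads. With only its groups fitted 281 of 14333 genes were called, 257 of them higher. DESeq2 called 1 member lower, beside 322 of 16840 genes, and 1076 genes in either direction. The interaction was lower for 2 members without a filter and 2 in edgeR, and higher for 6 in DESeq2. All genes lower were 1077 of 21878 without a filter and 1328 of 17050 in edgeR, and 1048 of 16840 were higher in DESeq2. The cause was not tested.

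The replicate block lowered post-dauer calls to 1 member and 367 genes, and interaction calls to 2 lower members and 1044 genes. Same-numbered libraries correlated at -0.258 to 0.0147 in their deviations, so the numbers were not taken as pairs. A block with crossed numbers in aak(0) post-dauers, chosen after seeing the data, called 2 members higher and 601 genes.

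Leaving out each library in turn gave, as members higher, members lower and all genes called, for the daf-2 hzl-1 stage change 8 to 18 higher, 10 to 12 lower and 8180 to 11168 genes. It gave for the aak(0) stage change 3 to 5 higher, 6 to 17 lower and 4964 to 8738 genes, and for dauers of the genotypes 5 to 21 higher, 0 to 2 lower and 1305 to 5376 genes. It gave for post-dauers of the genotypes 0 to 8 higher, 0 to 1 lower and 90 to 1721 genes, and for the interaction 1 to 2 higher, 0 to 12 lower and 360 to 3896 genes.

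Members with few reads, such as tnt-4 at 29 and 39 reads in the post-dauers of daf-2 hzl-1, are limited by depth. The low FPKM of ttn-1 came with 230 to 2248 reads over an exonic length of 56044 nt. Fits without 1 library assume that the lone library varies like the other groups.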
